A study of Mus musculus with 6 samples.

Results

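The genes described here are 10 Eph receptors and ephrins, chosen by symbol: the EphB receptor genes Ephb2, Ephb3 and Ephb4, the EphA receptor genes Epha1, Epha2 and Epha4, the ephrin-B genes Efnb1 and Efnb2, and the ephrin-A genes Efna1 and Efna4. All 10 were found among the 18448 genes of the deposited table, and all 10 passed the filter on low counts that left 14544 genes for testing. RNA came from jejunal organoids, cultures of mouse small intestinal epithelium (strain C57BL/6), carrying floxed Hnf4a alleles and a tamoxifen-inducible Cre recombinase driven by the villin promoter, which is active in intestinal epithelium. In 3 libraries the organoids had received 4-hydroxytamoxifen (4OHT, 0.5 µM for 24 hours) to delete Hnf4a, a nuclear receptor gene, and in 3 libraries the vehicle DMSO. Both groups carried the same alleles, were passaged, were given 200 ng/mL recombinant Wnt3A and were harvested on day 2. The age and sex of the donor mice and the number of organoid lines were not given in the labels, and no group here received 4OHT without floxed alleles, so an effect of 4OHT or Cre and one of Hnf4a loss cannot be told apart.

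Eph receptors are receptor tyrosine kinases that bind ephrins on the surface of neighbouring cells, and signals pass both ways: forward into the receptor-bearing cell and in reverse into the ephrin-bearing cell. Ephrin-A proteins are held by a lipid anchor and mostly bind EphA receptors, whereas ephrin-B proteins span the membrane and mostly bind EphB receptors. In the intestine EphB2 and EphB3 are products of Wnt/beta-catenin target genes and are found on crypt cells, with ephrin-B1 and ephrin-B2 on cells nearer the villus. Repulsion between the cell populations keeps them sorted along the crypt axis and keeps Paneth cells at the crypt base.

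Hnf4a was lower in all 4OHT libraries than with DMSO, at 839.8, 846.2 and 1021 against 435.9, 423.7 and 481.7 CPM. CPM are counts scaled to the effective library size, and values are given for replicates 1, 2 and 3 in this order throughout. The log2 fold change was -1.01 (edgeR adjusted p = 0.0124), and the call was lost when any library other than DMSO replicate 3 was left out (adjusted p from 0.0572 to 0.0951). Library totals ran from 31537100 to 40276242 counts. DMSO replicate 3 stood apart from its group: chi-square per degree of freedom over genes was 64.2 and 58.5 against DMSO replicates 1 and 2, beside 7.86 between those replicates. Epithelial markers were high in all libraries, with Epcam between 893.3 and 1184 CPM and Vil1 between 700.9 and 926.5 CPM. Epcam was lower in every 4OHT library, as were 10.1% of all tested genes (log2 fold change -0.27, edgeR adjusted p = 0.144). With the replicate number as a block its adjusted p was 0.0446. Of the 7 epithelial markers 4 had a log2 fold change above 0. Of 3 endothelial markers, which matter here because Ephb4 and Efnb2 also mark veins and arteries, Pecam1 was between 0.306 and 0.478 CPM and Cdh5 and Kdr were not among the genes of the table. The leukocyte markers Ptprc and Cd68 summed to 2.37 to 2.97 CPM in DMSO and 3.78 to 4.94 CPM after 4OHT, without overlap and almost all from Cd68 (log2 fold change 0.62, edgeR adjusted p = 0.150), with Cd3e not in the table. Their part in the differences of the members was not tested. The mesenchymal markers Vim, Pdgfra and Col1a1 summed to between 4.44 and 7.6 CPM, almost all from Vim, with Col3a1 and Dcn not in the table.

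The groups of Epha2, Epha4 and Ephb4 did not overlap, as was so for 22.6% of all tested genes, and the bases before their annotated starts are shown as the sequence next to the start in which motifs were searched. Each run holds the 250 bases before the RefSeq start on the gene's own strand in GRCm38.p6, 5′ to 3′, with CpG dinucleotides in capitals. The Epha2 run lies at chr4:141300971-141301220 (plus strand), the Epha4 run at chr1:77515089-77515338 (minus strand) and the Ephb4 run at chr5:137349859-137350108 (plus strand).
Epha2: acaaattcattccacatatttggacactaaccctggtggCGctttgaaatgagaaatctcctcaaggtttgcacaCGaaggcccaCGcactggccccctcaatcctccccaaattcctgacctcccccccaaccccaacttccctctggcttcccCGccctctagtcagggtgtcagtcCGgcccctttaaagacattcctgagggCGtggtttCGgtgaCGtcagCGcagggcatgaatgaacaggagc
Epha4: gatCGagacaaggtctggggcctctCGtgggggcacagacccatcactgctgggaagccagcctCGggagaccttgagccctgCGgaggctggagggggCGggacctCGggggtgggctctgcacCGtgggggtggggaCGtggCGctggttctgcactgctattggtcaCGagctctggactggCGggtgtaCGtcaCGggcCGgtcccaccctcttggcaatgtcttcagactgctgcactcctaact
Ephb4: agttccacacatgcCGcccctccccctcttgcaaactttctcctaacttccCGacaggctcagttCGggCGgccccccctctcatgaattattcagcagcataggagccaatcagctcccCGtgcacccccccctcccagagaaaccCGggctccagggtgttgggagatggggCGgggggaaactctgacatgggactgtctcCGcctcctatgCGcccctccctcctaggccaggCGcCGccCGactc
These runs hold 9 CpG (Epha2), 14 (Epha4) and 12 (Ephb4). Over the 11 start sites that RefSeq gave for the 10 members the count ran from 7 before Efna4 to 27 before Efnb2, with a median of 14, beside a median of 15 over 12861 start sites of tested genes. Neither CTTTGAT, a form of the core of the motif of the Wnt effectors TCF/LEF, nor CAAAGTCCA, a core of the HNF4 motif, was found on either strand in the 300 bases around any of the 11 start sites (250 before and 50 from the start). Of all 32851 RefSeq windows of that length 3.73% held the first and 0.475% the second, so the absence says only that these letters are not in these windows. Other forms of these motifs were not searched.

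The comparison of 4OHT with DMSO asks whether the receptor and ligand genes of crypt positioning respond to loss of Hnf4a while Wnt3A is supplied. None of the 10 members was called at an adjusted p under 0.05 by edgeR, DESeq2 or limma-voom, where these tools called 0.908%, 5.24% and 0.846% of all tested genes. The smallest adjusted p values of a member were 0.185 (edgeR), 0.0853 (DESeq2) and 0.18 (limma-voom), each for Ephb4. At an unadjusted p under 0.05 Epha2 was higher and Ephb4 lower, 2 of 10 members beside 15% of all tested genes (8.65% higher and 6.35% lower). The median log2 fold change of the members was 0.03, with 5 of 10 above 0, and that of all tested genes was 0.00, with 49.2% above 0. The plot of levels by library shows every value.

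**Figure D1:**
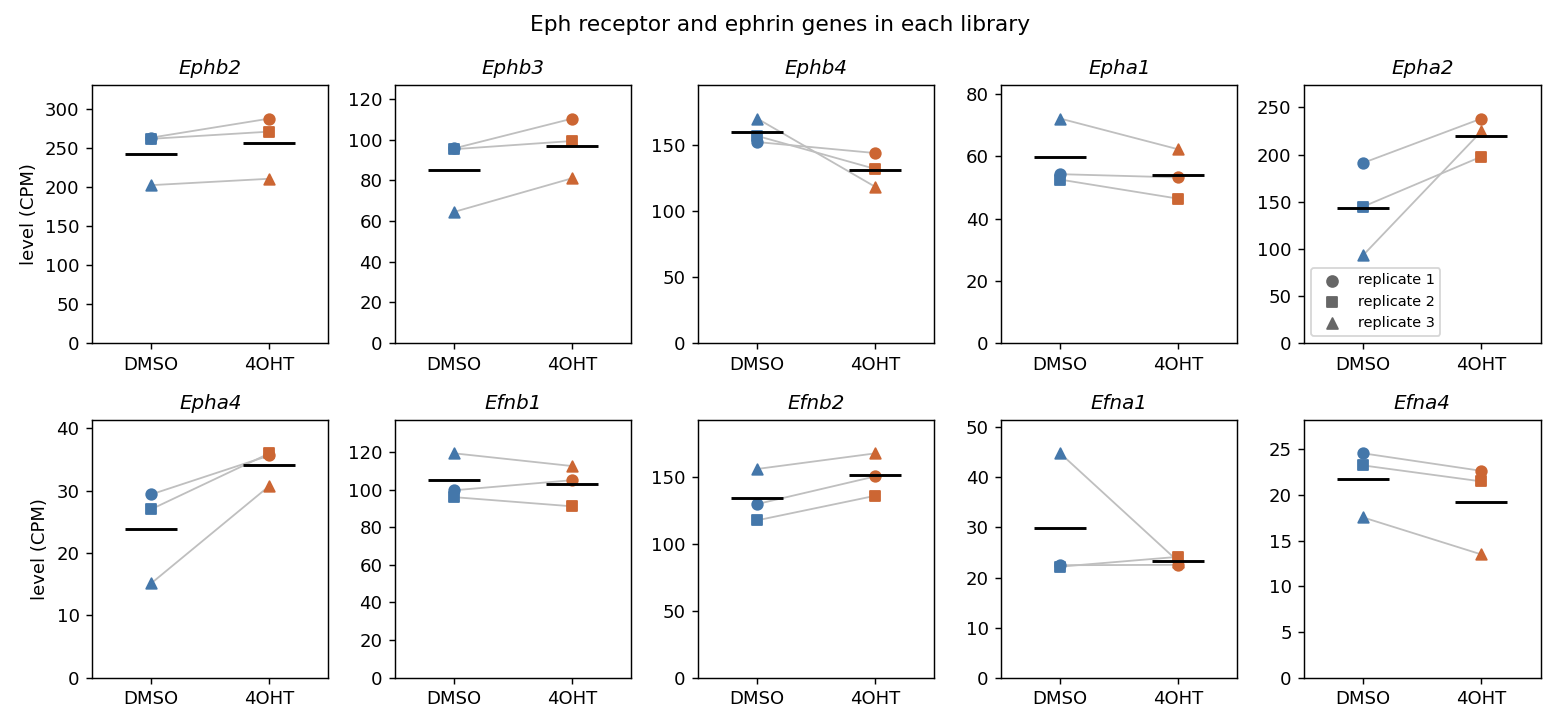
Level of each of the 10 genes in CPM (linear axis from 0) in the 3 DMSO (blue) and 3 4OHT (orange) libraries; marker shapes give the replicate number, grey lines join libraries with the same number and black bars are group means. Only Epha2, Epha4 and Ephb4 have groups that do not overlap, and the DMSO replicate 3 triangle is lowest for Epha2 and Epha4 and highest for Efna1.

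Replicate numbers were shared by both groups, and libraries with the same number deviated together from their group means. With the replicate number as a block edgeR again called 0 of the 10 members, where it called 6.99% of all tested genes, and the members' adjusted p ran from 0.0756 to 0.774. At an unadjusted p under 0.05 in the blocked fit 7 of 10 members passed, 4 higher (Ephb3, Epha2, Epha4, Efnb2) and 3 lower (Ephb4, Epha1, Efna4), beside 25.3% of all tested genes (13.3% higher and 12% lower). Within the same-number pairs 5 members were higher after 4OHT in all 3 pairs (the same 4 and Ephb2) and 3 were lower in all 3 (the same 3), beside 25.3% and 24.5% of all tested genes. Efnb1 and Efna1 went both ways.

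Among the EphB receptor genes, Ephb2 encodes the receptor whose level falls from the crypt base upward. Its gene (ENSMUSG00000028664) lies on chromosome 4 from 136647539 to 136835988 in GRCm38. It measured 262.8, 261.3 and 202 CPM with vehicle and 287.3, 270.6 and 210.2 CPM with 4OHT. Replicate 3 was the lowest library of both groups, and the groups overlapped. Group means were 242 ± 34.7 and 256 ± 40.5 CPM (SD, n = 3), and the log2 fold change was 0.08 (95% confidence interval -0.27 to 0.43, edgeR adjusted p = 0.845). The interval with the replicate block was -0.03 to 0.19, and the difference changed sign without DMSO replicate 3 (-0.04) or 4OHT replicate 1 (-0.02).

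Ephb3 encodes the EphB receptor most closely tied to Paneth cell placement and lies on chromosome 16 from 21204755 to 21223305 (ENSMUSG00000005958). Its level was 95.8, 95.4 and 64.5 CPM with vehicle and 110.5, 99.4 and 81.1 CPM with 4OHT. As for Ephb2, replicate 3 was lowest in both groups and each 4OHT library was above the DMSO library of the same number. The log2 fold change was 0.19 (95% confidence interval -0.23 to 0.60, adjusted p = 0.677, and 0.112 with the replicate block), and it was 0.01 without DMSO replicate 3, and 0.07 and 0.30 when 4OHT replicate 1 or 3 was left out.

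Ephb4, which encodes the EphB receptor that prefers ephrin-B2 as its ligand, was lower in all 4OHT libraries than with vehicle. Its gene (ENSMUSG00000029710) lies on chromosome 5 from 137350109 to 137378669 and shares 33 exonic bases with Zan on the other strand. The levels were 152.1, 156.7 and 169.9 CPM with vehicle and 143.8, 131.7 and 118.1 CPM with 4OHT. Group means were 160 ± 9.22 and 131 ± 12.8 CPM (SD, n = 3), that is 1.22-fold lower with 4OHT (log2 fold change -0.28, SE 0.0849, 95% confidence interval -0.48 to -0.08). This missed the threshold (unadjusted p = 0.0125, edgeR adjusted p = 0.185, and 0.108 with the replicate block). The difference was negative in all 15 alternative analyses, from -0.36 without 4OHT replicate 1 to -0.17 without replicate 3 of both groups.

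Epha2, which encodes the EphA receptor widely expressed in epithelia and a main partner of ephrin-A1, had the largest difference among the members. Its gene (ENSMUSG00000006445) lies on chromosome 4 from 141301240 to 141329384. The levels were 191.2, 144.7 and 93.3 CPM with vehicle and 238.1, 197.8 and 224.6 CPM with 4OHT. Every 4OHT library was above every DMSO library, while the DMSO libraries themselves differed by more than the gap between the groups. Mean levels of 143 ± 48.9 and 220 ± 20.5 CPM (SD, n = 3) gave a 1.54-fold higher value (log2 fold change 0.62, SE 0.236, 95% confidence interval 0.06 to 1.18), which missed the threshold (edgeR adjusted p = 0.283, and 0.084 with the replicate block). Without DMSO replicate 3 the log2 fold change was 0.38 (adjusted p = 0.208). In the authors' deposited table the edgeR adjusted p of Epha2 was 0.047 and its DESeq adjusted p was 0.4, with a log2 fold change of 0.622, and no other member had an adjusted p under 0.05 there.

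Epha4 encodes an EphA receptor that binds ephrins of both classes and lies on chromosome 1 from 77367185 to 77515088 (ENSMUSG00000026235). It measured 29.4, 27 and 15.1 CPM with vehicle and 35.6, 36 and 30.8 CPM with 4OHT. The groups did not overlap, with DMSO replicate 3 well below the other libraries and the highest DMSO library just under the lowest 4OHT library. Mean levels of 23.9 ± 7.64 and 34.1 ± 2.92 CPM (SD, n = 3) gave a 1.43-fold higher value (log2 fold change 0.51, 95% confidence interval -0.03 to 1.06, adjusted p = 0.358, and 0.0756 with the replicate block). Without DMSO replicate 3 the log2 fold change was 0.27 (adjusted p = 0.206). The third EphA receptor gene, Epha1 (ENSMUSG00000029859, chromosome 6 from 42358487 to 42373268), measured 54.3, 52.5 and 72.2 CPM with vehicle and 53.2, 46.4 and 62.3 CPM with 4OHT. Replicate 3 was highest in both groups and the groups overlapped (log2 fold change -0.14, 95% confidence interval -0.50 to 0.22, adjusted p = 0.714). Without DMSO replicate 3 its difference changed sign (0.01). Epha1 shares 236 exonic bases with Zyx on the other strand, so part of its count could come from Zyx (127.1 to 145.1 CPM) if strand was not used in counting.

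The groups separated for 3 of 10 members, 2 higher and 1 lower, beside 22.6% of all tested genes (12.5% higher and 10.1% lower). The plot of log2 fold changes sets the fits with and without the replicate block side by side.

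**Figure D2:**
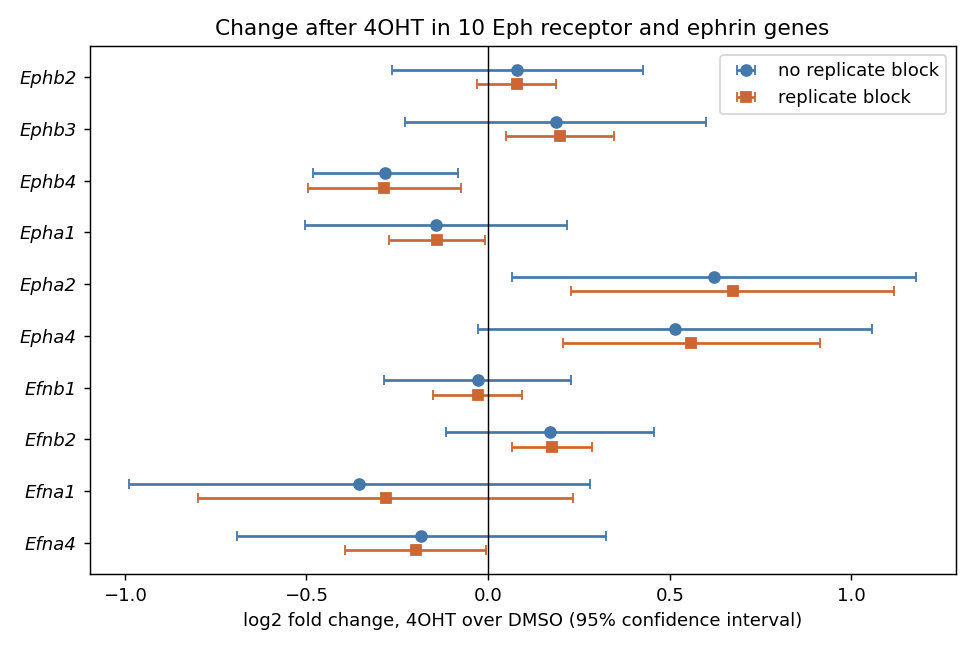
Log2 fold change of 4OHT over DMSO with its 95% confidence interval for the 10 genes, from edgeR without (blue circles) and with (orange squares) the replicate number as a block. Without the block only the intervals of Ephb4 (-0.48 to -0.08) and Epha2 (0.06 to 1.18) leave out 0, before adjustment for the number of genes tested.

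The ephrin-B ligand genes Efnb1 and Efnb2 did not pass the test. Efnb1 (ENSMUSG00000031217, chromosome X from 99136130 to 99148991) encodes a ligand of EphB2 and EphB3. It measured 99.6, 95.9 and 119.2 CPM with vehicle and 105, 91.1 and 112.5 CPM with 4OHT. The groups covered almost the same range, with replicate 3 highest in both (log2 fold change -0.03, 95% confidence interval -0.29 to 0.23, adjusted p = 0.932). The sign changed without DMSO replicate 3 (0.07) or 4OHT replicate 2 (0.05). Efnb2 (ENSMUSG00000001300, chromosome 8 from 8617434 to 8661242), which also encodes the ligand of EphB4, measured 130, 117.8 and 156.3 CPM with vehicle and 150.7, 136.2 and 168 CPM with 4OHT. Each 4OHT library was above the DMSO library of its number, but the groups overlapped (log2 fold change 0.17, 95% confidence interval -0.11 to 0.46, adjusted p = 0.561, and 0.0756 with the replicate block). It was 0.08 without DMSO replicate 2, 0.09 without 4OHT replicate 3 and 0.29 without DMSO replicate 3.

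Neither ephrin-A ligand gene passed the test, and the difference in Efna1 rested on 1 library. Efna1 (ENSMUSG00000027954, chromosome 3 from 89271733 to 89281142) encodes a ligand of EphA2 and measured 22.5, 22.2 and 44.8 CPM with vehicle and 22.5, 24.1 and 23.2 CPM with 4OHT. DMSO replicate 3 was far above the other 5 libraries, which lay close together. The log2 fold change of -0.35 (95% confidence interval -0.99 to 0.28, adjusted p = 0.593) became 0.05 without that library. Efna4 (ENSMUSG00000028040, chromosome 3 from 89333390 to 89338028), which encodes a further ephrin-A ligand, measured 24.6, 23.2 and 17.5 CPM with vehicle and 22.6, 21.5 and 13.5 CPM with 4OHT. Each 4OHT library was below the DMSO library of its number and replicate 3 was lowest in both groups (log2 fold change -0.18, 95% confidence interval -0.69 to 0.32, adjusted p = 0.743). Without 4OHT replicate 3 the difference changed sign (0.02). Efna4 shares 168 exonic bases with the antisense gene 4731419I09Rik.

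Replicate 3 of both groups differed from replicates 1 and 2 in the same direction for 7 of the 10 members. The share of all tested genes with the same direction was not counted. Over all tested genes the deviations of the replicate 3 libraries from their group means correlated at 0.43. The count is thus not a trait of the members. Set against the average of its group's replicates 1 and 2 in log2 CPM, Ephb2 differed by -0.38 in DMSO replicate 3 and -0.41 in 4OHT replicate 3. For Ephb3 the differences were -0.57 and -0.37, and for Efna4 they were -0.44 and -0.71. The ephrin-B genes went the other way, with 0.29 and 0.20 for Efnb1 and 0.34 and 0.23 for Efnb2, as did Epha1 (0.43 and 0.33). Ephb2 and Ephb3 were thus low, and their ligand genes high, in the same libraries. For Epha2 (-0.83 and 0.05), Efna1 (1.004 and -0.01) and Epha4 (-0.89 and -0.22) the difference lay mainly in DMSO replicate 3.

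**Figure D3:**
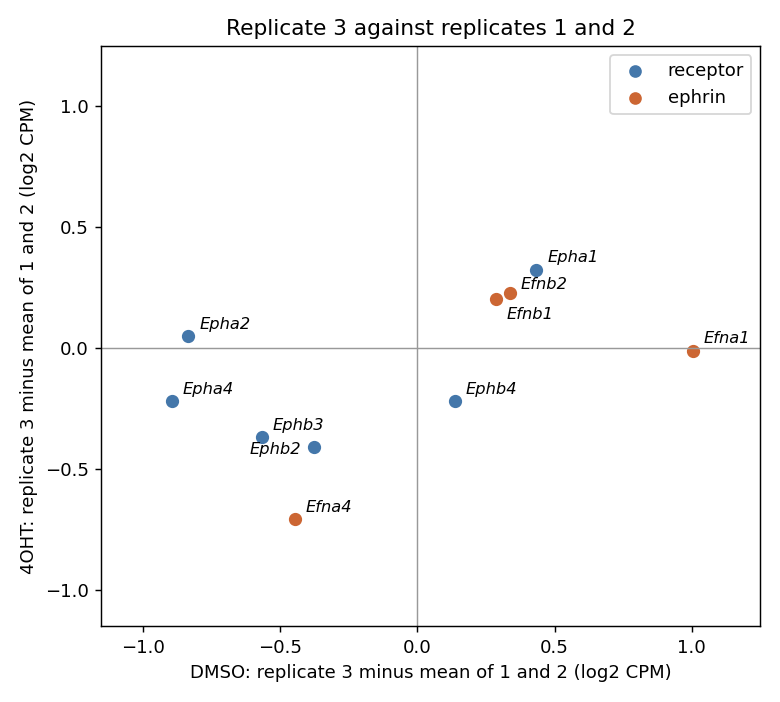
Difference in log2 CPM between replicate 3 and the mean of replicates 1 and 2, in DMSO (horizontal axis) and after 4OHT (vertical axis), for receptor genes (blue) and ephrin genes (orange). Ephb2, Ephb3, Epha4 and Efna4 lie below 0 on both axes, and Epha1, Efnb1 and Efnb2 above 0 on both.

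Several gene lists differed in the same libraries. All 13 tested Wnt target genes were lower in both replicate 3 libraries (medians -0.90 in DMSO and -0.80 after 4OHT), and the summed level of the list was 1098 CPM in DMSO replicate 3 beside 1671 and 1710 CPM in the other DMSO libraries. After 4OHT the sum was 1320 CPM in replicate 3 beside 1716 and 1752 CPM. Enterocyte markers were higher in DMSO replicate 3 for 9 of 9 genes (median 0.83, summed level 5750 CPM beside 2693 and 2963) and in 4OHT replicate 3 for 8 of 9 (median 0.41, 3144 CPM beside 1835 and 2385). All 7 goblet markers were higher in replicate 3 of both groups (medians 0.94 in DMSO and 0.62 after 4OHT), as were all 6 enteroendocrine markers (0.46 and 0.25). All 6 proliferation genes were lower in both (-0.17 and -0.13). Of 7 stem cell markers 4 were lower in DMSO replicate 3 (median -0.04) and 7 in 4OHT replicate 3 (median -0.46). The Paneth cell markers showed little shift, with 3 of 7 lower in replicate 3 of both groups (medians 0.01 in DMSO and 0.03 after 4OHT). The median over all tested genes was 0.00 in both. The part of these genes and cell types in the spread of the members was not tested. In bulk RNA, fewer cells of a type and less RNA per cell cannot be told apart.

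Without replicate 3 of both groups, which leaves 2 libraries a group, edgeR called Epha4 higher (log2 fold change 0.34, adjusted p = 0.0494), 1 of 10 members beside 2.59% of all tested genes. With the replicate block on these 4 libraries, a fit with 1 residual degree of freedom, 3 members were called higher and 1 lower, beside 10.1% and 8.16% of all tested genes. Epha2 (0.38, adjusted p = 4.36e-06), Epha4 (0.34, adjusted p = 0.000542) and Efnb2 (0.20, adjusted p = 0.00164) were higher and Ephb4 (-0.17, adjusted p = 0.0142) lower. Calls for these members were thus made only when both libraries numbered 3 were left out, among the 15 alternatives run.

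Stem cell and Paneth cell markers, the crypt lists nearest to the known sites of EphB2 and EphB3, each held 1 called gene. Of all tested genes edgeR called 0.908%, and 6.99% with the replicate block. Of 7 stem cell markers Msi1, which encodes an RNA-binding protein, fell (46.7 ± 9.1 CPM in DMSO and 19.5 ± 4.25 after 4OHT, SD, n = 3, log2 fold change -1.26, edgeR adjusted p = 0.0455), and 1 of 7 log2 fold changes was above 0 (median -0.37). The marker above 0 was Prom1 (290.1 CPM in DMSO and 351.6 after 4OHT, log2 fold change 0.28, adjusted p = 0.0953). With the replicate block Prom1 was called higher (adjusted p = 0.0365) and Msi1 lower (adjusted p = 0.00192). The summed level of the 7 stem cell markers was 1624 to 1980 CPM in DMSO and 1234 to 1709 CPM after 4OHT. Of 7 Paneth cell markers Lyz1, which encodes lysozyme, fell (424 ± 52.1 and 247 ± 19.1 CPM, -0.78, adjusted p = 0.0318), and 3 of 7 were above 0 (median -0.09). Their sum was 1972 to 2305 CPM in DMSO and 1906 to 2029 CPM after 4OHT. The summed level of 7 goblet cell markers was 2229 to 4201 CPM in DMSO and 3619 to 6131 CPM after 4OHT, with 7 of 7 log2 fold changes above 0 and 0 called (6 higher with the replicate block). That of 9 enterocyte markers was 2693 to 5750 CPM in DMSO and 1835 to 3144 CPM after 4OHT, with 0 of 9 above 0 and 0 called (3 lower with the block). No marker of these 4 lists was at 0 in all libraries. Their part in the differences of the members was not tested.

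To compare levels between genes, CPM were divided by the length of the joined exons of each gene. On this scale, in CPM per kb and over all 6 libraries, Epha2 had the highest mean (38.9 ± 11.5), followed by Ephb4 (31.3 ± 3.98), Efnb1 (30.1 ± 3.06), Efnb2 (20.9 ± 2.7) and Ephb2 (19.8 ± 2.74, SD, n = 6). Below these came Efna1 (14.5), Epha1 (14.5), Ephb3 (13.7) and Efna4 (12.8), and Epha4 was lowest at 3.6 CPM per kb. The top ranks differed by group: Ephb4 came first in DMSO (34.4 beside 30.6 for Epha2), and after 4OHT Epha2 was first (47.1) and Ephb4 at rank 3 (28.3, behind 29.8 for Efnb1). Neighbours in the order over 6 libraries had ranges over the 6 libraries that overlapped, except Efnb1 above Efnb2 and Efna4 above Epha4, where all 6 libraries agreed in order. With the length of the longest transcript in place of the joined exons Ephb3 moved from rank 8 to rank 6 and Efna1 from rank 6 to rank 8.

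**Figure D4:**
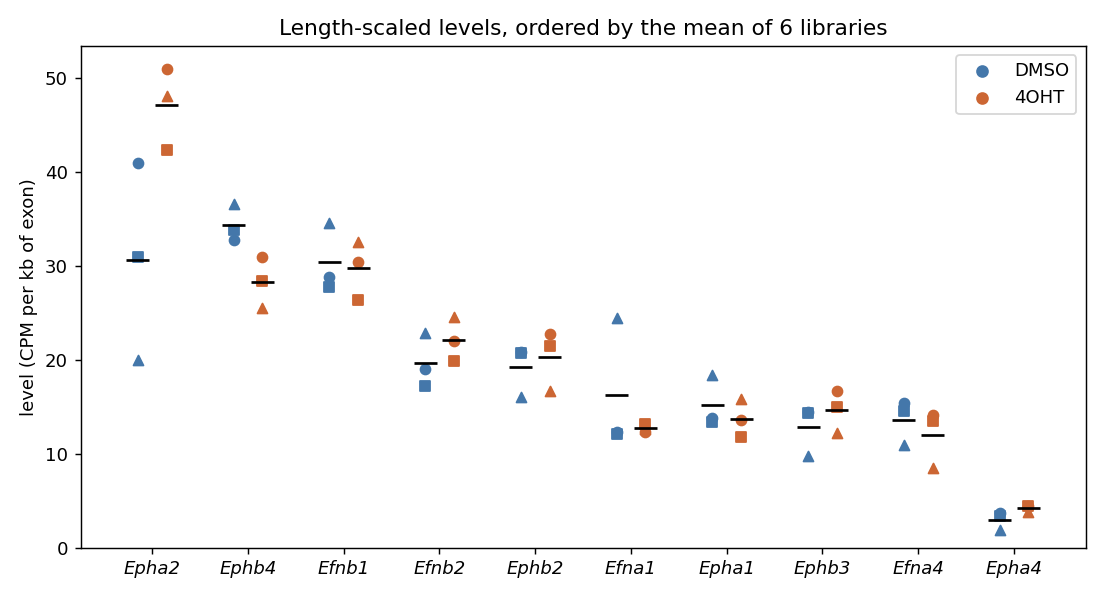
Level of each gene in CPM per kb of exon (linear axis from 0) in the DMSO (blue) and 4OHT (orange) libraries, ordered by the mean of all 6; marker shapes are replicates 1 (circle), 2 (square) and 3 (triangle), and black bars are group means. Epha2 spans 20 to 40.9 CPM per kb in DMSO and 42.3 to 50.9 after 4OHT, and Epha4 reaches at most 4.47 in any library.

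Summed by class on the same scale, the EphA receptor sum was higher with 4OHT, with no overlap between the groups. Single genes had groups without overlap in 22.6% of all tested genes. Within this sum Epha1 went the other way and was lower after 4OHT in all 3 pairs. The ephrin-A sum depended on which genes it held. The EphA sum of Epha1, Epha2 and Epha4 was 58.4, 47.7 and 40.2 CPM per kb in DMSO and 68.9, 58.6 and 67.7 after 4OHT. Epha2 made up 61.5% ± 10.6 of it in DMSO and 72.4% ± 1.49 after 4OHT (SD, n = 3). The ephrin-A sum of Efna1 and Efna4 was 27.6, 26.7 and 35.5 CPM per kb in DMSO and 26.5, 26.6 and 21.1 after 4OHT, and for both sums the nearest values of the groups almost touched. With Efna2, Efna3 and Efna5 added, a choice made after seeing the data, it was 30.6, 29.6 and 37.5 CPM per kb in DMSO and 30.8, 30.57 and 24 after 4OHT, the groups overlapped and 2 of 3 pairs were higher after 4OHT. The ratio of EphA to ephrin-A over the members was 2.11, 1.79 and 1.13 in DMSO and 2.6, 2.2 and 3.21 after 4OHT. DMSO replicate 3, the library with the highest Efna1 and also the lowest Epha2 and EphA sum, had the lowest ratio. Group means of the ratio were 1.68 and 2.67, and without the libraries numbered 3 they were 1.95 and 2.4. Without those libraries the group means of the member sums were 53 and 63.8 CPM per kb for EphA and 27.1 and 26.6 for ephrin-A, and the share of Epha2 was 67.5% and 73.1%. These sums were set over genes chosen with results known and carry no test.

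The EphB sum of Ephb2, Ephb3 and Ephb4 was 68.1, 68.9 and 62.4 CPM per kb in DMSO and 70.4, 64.8 and 54.3 after 4OHT, and the groups overlapped. Within it the share of Ephb4 was 52% ± 5.85 in DMSO and 44.9% ± 1.7 after 4OHT, and that of Ephb2 was 28.8% ± 2.71 and 32.1% ± 1.24 (SD, n = 3). Without the libraries numbered 3 the mean share of Ephb4 was 48.6% and 43.9%. The ephrin-B sum of Efnb1 and Efnb2 was 47.8, 45 and 57.3 CPM per kb in DMSO and 52.4, 46.3 and 57.1 after 4OHT. The ratio of EphB to ephrin-B was lowest in replicate 3 of both groups, at 1.09 in DMSO and 0.952 after 4OHT, beside 1.34 to 1.53 in the other 4 libraries. It was lower after 4OHT in all 3 pairs (1.35 ± 0.231 in DMSO and 1.23 ± 0.244 after 4OHT), with groups that overlapped.

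Of the 12 further Eph and ephrin genes of the mouse, 6 were in the table, namely Epha7, Ephb6, Efna2, Efna3, Efna5 and Efnb3, and all but Efna5 passed the filter. Epha3, Epha5, Epha6, Epha8, Epha10 and Ephb1 were not analysed here. Efna3, a ligand gene between Efna1 and Efna4 on chromosome 3, measured 6.53, 6.1 and 4.42 CPM with vehicle and 10, 8.93 and 6.17 CPM with 4OHT. It was higher in every pair, and with the replicate block it rose (log2 fold change 0.55, adjusted p = 0.0348), while without the block it missed the threshold (0.56, adjusted p = 0.309). Its 2 neighbours in the cluster, Efna1 and Efna4, had negative log2 fold changes that did not pass. Efnb3, the remaining ephrin-B gene, was at 4.94 ± 0.544 and 3.79 ± 0.336 CPM with no overlap between the groups, as for 22.6% of all tested genes (-0.38, adjusted p = 0.273, and 0.136 with the block). Epha7 was between 1.28 and 1.94 CPM, and Ephb6 (a receptor without an active kinase), Efna2 and Efna5 were below 1 CPM in all 6 libraries.

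Proteins that act with Eph receptors and ephrins showed 0 calls among 41 tested genes (median log2 fold change 0.03). At an unadjusted p under 0.05, 5 of the 41 were higher and 4 lower, beside 8.65% and 6.35% of all tested genes. The 4 with the smallest p were Ngef, Kalrn, Vav2 and Rock2. Ngef encodes ephexin-1, an exchange factor that binds EphA receptors, and measured 60.8 ± 4.33 CPM in DMSO and 49.6 ± 1.48 CPM after 4OHT (SD, n = 3). Its groups did not overlap, and it fell in the fit with the replicate block (log2 fold change -0.29 in both fits, adjusted p = 0.0296 with the block and 0.108 without). The exchange factor genes Kalrn (24.3 and 35.9 CPM, 0.56, adjusted p = 0.121) and Vav2 (54.2 and 62.3 CPM, 0.20, adjusted p = 0.123) and the kinase gene Rock2 (226.9 and 275.4 CPM, 0.28, adjusted p = 0.139) missed the threshold in both fits, with no overlap between their groups. Groups did not overlap for 22.6% of all tested genes. Adam10, a protease that cleaves ephrins and E-cadherin, was at 195 ± 6.07 and 199 ± 9.83 CPM (0.03, adjusted p = 0.869). Cdh1, which encodes E-cadherin, was at 1082 and 1104 CPM (0.03, adjusted p = 0.915).

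Of 13 tested Wnt/beta-catenin targets other than Ephb2 and Ephb3, 0 were called (median log2 fold change -0.10). The gene higher at an unadjusted p under 0.05 was the cyclin gene Ccnd1 (log2 fold change 0.35, edgeR adjusted p = 0.324). With the replicate block 1 fell, which was Axin2, a feedback inhibitor of the pathway (-0.34, adjusted p = 0.586, and 0.0265 with the block). Axin2 was lower after 4OHT in all 3 pairs, as were Ascl2, Sox9, Nkd1, Znrf3, Sp5 and Tcf7. Ccnd1 and Tnfrsf19 were higher in all 3 pairs, as were Ephb2 and Ephb3. Of all tested genes 24.5% were lower and 25.3% higher in all 3 pairs.

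The genes most like the members over the 6 libraries were read off as a description, as the highest of 9373 Pearson correlations of log2 CPM for each member, over libraries that share group and replicate differences. For Epha2 they were Tmod3 (r = 0.9992, n = 6), which encodes a tropomodulin, and Nbeal2 (r = 0.997). For Epha4 they were Ppfibp1 (r = 0.9997) and Cdk6 (r = 0.9987), and for Ephb4 they were Smarca2 (r = 0.994) and Lhpp (r = 0.989). With this many candidates and 6 libraries, values this near 1 are reached for each member.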

How the data were processed

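RNA was purified on columns, and poly(A)-selected libraries were made from 250 ng of RNA using directional reagents, per the labels' protocols. The tools STAR 2.4.0f1, bcl2fastq 1.8.4 and the build GRCm38 were named, per the submitters' processing notes; the counting program and its strand setting were not given in the sources used here. The authors deposited raw counts per gene for 18448 genes, none below a summed count of 10. The authors also deposited a normalised score per library, which was not used, and a log2 fold change with p-values from DESeq and edgeR, per the file headers, which were only set beside the results.

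The test was edgeR 4.0.16 in R 4.3.3: filterByExpr removed 3904 genes, TMM scaled the libraries, and the quasi-likelihood F test set 4OHT against DMSO, two-sided, adjusted by Benjamini-Hochberg over the 14544 tested genes, with a call at an adjusted p under 0.05. Adjusted p-values with no tool named are from it. Confidence intervals are at the 95% level and are not adjusted. The pipeline was tested on simulated data. Alternatives were RLE scaling, library totals, no filter, a filter at 10 CPM, DESeq2 1.42.0, limma-voom (limma 3.58.1), the replicate block and fits without single libraries or without both libraries numbered 3.

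Deviations from the group means correlated across genes at 0.30, 0.33 and 0.43 between libraries with the same number. Between libraries with different numbers the correlations ran from -0.37 to 0.07. Deviations within a group cancel out, so these values are tied to each other. This is where the pairing comes from, since the labels name no shared culture. It was thus drawn from the same counts as the fits with the replicate block. The labels do not say that replicates came from separate lines or animals, and p-values then measure only the spread between these samples, which may be of technical origin. Coordinates and exon lengths came from GENCODE mouse release M21 (GRCm38), and start-site sequences from RefSeq (GRCm38.p6), which held all 10 members. Named genes were the 10 members, Hnf4a, the other family genes, and from each list of partners and Wnt targets the called genes and the smallest p-values. Adam10, Cdh1 and the further Wnt targets were chosen after their values were seen. So were Pecam1, Cd68, Msi1, Prom1, Lyz1, Epcam and Vil1 as examples of marker lists. The members and lists were chosen with earlier results of these data known.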

Additional observations from a re-analysis of the deposited data

How the results depend on the processing

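For the 10 members, 136 of 150 values under an alternative kept their direction and their side of the threshold, 5 crossed it and 9 changed sign. The changes of sign were all in differences that had not passed. Leaving out single libraries gave log2 fold changes from -0.041 (without DMSO replicate 3) to 0.204 for Ephb2, which was also -0.02 without 4OHT replicate 1. The range was -0.260 to 0.0093 (without DMSO replicate 3) for Epha1 and -0.099 to 0.067 (without DMSO replicate 3) for Efnb1, which was also 0.051 without 4OHT replicate 2. It was -0.328 to 0.017 (without 4OHT replicate 3) for Efna4 and -0.530 to 0.054 (without DMSO replicate 3) for Efna1, which was 0.0574 without both libraries numbered 3 and 0.0571 without them and with the replicate block.

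Members called higher numbered 0 in the main analysis, 1 without both libraries numbered 3 and 3 without them and with the replicate block, and those called lower numbered 0, 0 and 1. The block on all 6 libraries changed no call of a member (0 of 10). Leaving out single libraries gave 0 members in either direction. Over all tested genes 102 were called higher and 30 lower. These counts were 496 and 266 with DESeq2, 32 and 17 with the filter at 10 CPM, 580 and 437 with the replicate block, 379 and 222 without both libraries numbered 3, and 1482 and 1196 without them and with the replicate block. Leaving out single libraries gave 3 to 253 higher and 1 to 87 lower, and the highest of both came without DMSO replicate 3; the cause was not tested. The summed level of the 10 members, averaged over 6 libraries, was 200.0 CPM per kb of joined exons and 235 CPM per kb of the longest transcript, which is shorter by construction. In alternatives chosen after seeing the data, the difference of group means went from -5.18 to -0.593 CPM per kb for the ephrin-A sum and from 0.993 to 0.451 for the ratio of EphA to ephrin-A without both libraries numbered 3; with all family genes of the table these were -4.08 and 0.796. Every member had 466 or more counts in every library.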
